A study of Mus musculus with 46 samples.

Results

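Goblet cells are the mucus-secreting cells of the intestinal lining. In the 12-week colon they were taken as the cells with 200 or more detected genes in which Muc2, Clca1, Fcgbp, Zg16, Tff3, Spink4 and Agr2 together gave at least 3% of the cell's UMIs (unique molecular identifiers, 1 per counted molecule). By this rule 4665 of 25658 cells were goblet cells, 1355 of 8000 in the matrix named CT, 870 of 4730 in the matrix named Ime and 2440 of 12928 in the matrix named Met. The cells were chosen by the levels of these 7 genes, so these levels, and every contrast of the goblet cells with other cells, describe the choice and were not tested.

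The study gave male C57BL/6J mice metformin, a biguanide used in type 2 diabetes, or imeglimin, a structurally related tetrahydrotriazine in which the biguanide chain is closed into a ring. For the single-cell assay the drugs were in the drinking water for 12 weeks, and fixed colon cells were counted by probe hybridisation (10x Chromium Fixed RNA Profiling). All 3 matrices belong to 1 GEO sample, which is titled as a control while its treatment label names all 3 treatments, so a matrix is tied to a treatment by its deposited name alone, the labels do not tell how many mice each holds, and there are no replicates. Whole colon was also sequenced in bulk after 4 weeks at 3 mg/mL in the drinking water, with 3 libraries each of untreated control, imeglimin and metformin mice, and the tests below come from these 9 libraries. The cell rule did not use them.

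Goblet cells build the mucus gel of the colon. MUC2, the gel-forming mucin, is folded in the endoplasmic reticulum (ER), packed with O-linked sugars in the Golgi, stored in granules and released at the cell surface, where the Fc-gamma binding protein FCGBP, the metalloprotease CLCA1, the lectin ZG16 and the trefoil peptide TFF3 join it. AGR2 is a disulfide isomerase of the ER needed for MUC2, and SPINK4 is a Kazal-type protease inhibitor. Goblet cells arise in the lower crypt under the transcription factors ATOH1 and SPDEF and move up to the surface, and they also secrete defence proteins such as the ribonuclease ANG4 and the resistin-like molecule RETNLB.

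The chosen cells were epithelial by markers that the rule did not use. Markers shared by all epithelial cells summed to 27695, 24037 and 31088 CPM (UMIs of a gene scaled to a common total for the summed goblet cells) in CT, Ime and Met, the order used throughout. Markers of absorptive colonocytes, also epithelial, summed to 15972, 15559 and 14279 CPM, against 17875, 17355 and 23597 CPM in other epithelial cells. In CT and Ime they thus set the goblet cells little apart from other epithelial cells, and the reason was not tested. T and NK cell markers summed to 13.4, 19.8 and 13.6 CPM, endothelial markers to 38.9, 47.7 and 56.4 CPM and enteroendocrine markers to 280.1, 170.5 and 377 CPM. Smooth muscle markers summed to 344, 272 and 633 CPM, B and plasma cell markers to 982, 1005 and 1131 CPM and myeloid markers to 873, 788 and 878 CPM. Smooth muscle markers were thus highest in Met, as in its other epithelial cells (156, 142 and 314 CPM), and their part in the differences between matrices was not tested. Fibroblast markers summed to 1204, 1288 and 1318 CPM, against 33690.0, 23867 and 39810.0 CPM in non-epithelial cells. No marker of the fibroblast list was at 0 in the goblet cells, and 2 endothelial markers were at 0 in Ime. Each gene has its own probes, so CPM was compared for 1 gene across cells and never between genes.

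Goblet cells made up 16.9% (95% exact binomial interval 16.1% to 17.8%) of the cells of CT, 18.4% (17.3% to 19.5%) of Ime and 18.9% (18.2% to 19.6%) of Met. Of the goblet cells and other epithelial cells together they were 31.6% (30.2% to 33.0%), 36.0% (34.0% to 37.9%) and 32.6% (31.5% to 33.6%). Other epithelial cells were those with at least 1% of UMIs from the shared epithelial markers, less than 1% from non-epithelial markers and less than 3% from the 7 genes, and numbered 2938, 1550 and 5052. All intervals here cover counting error only and not differences between mice or preparations.

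Mucus transcripts were also found outside goblet cells, and most so in Met. In non-epithelial cells, which should lack Muc2, the 7 genes took a median of 0.179%, 0.056% and 0.612% of UMIs, and a Muc2 UMI was seen in 61.4%, 24.2% and 97.5% of cells at median depths of 1263, 828 and 3398 UMIs. Goblet cells all had a Muc2 UMI, at median depths of 5384, 2529.5 and 7603 UMIs, and the 7 genes took a median of 11.1%, 9.89% and 10.1% of their UMIs. Cells near the threshold were more frequent in Met, with 239 cells at 2.5% to 3% and 182 at 3% to 3.5%, against 68 and 54 in CT and 42 and 49 in Ime. The nearest cells on either side of the threshold lay at 2.9976% and 3.0007% in CT, 2.9864% and 3.01% in Ime and 2.9992% and 3% in Met. Raising the threshold by the median of each matrix's non-epithelial cells left 17.2% goblet cells in Met, and leaving out cells with at least 1% of non-epithelial markers left 14.9%, against 16.02% in CT. These cells made up 5.39%, 4.48% and 21.0% of the goblet cells. No full cell barcode was shared between matrices (0), while 83, 39 and 45 gel bead barcodes of goblet cells recurred between CT and Met, CT and Ime, and Ime and Met.

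**Figure D1:**
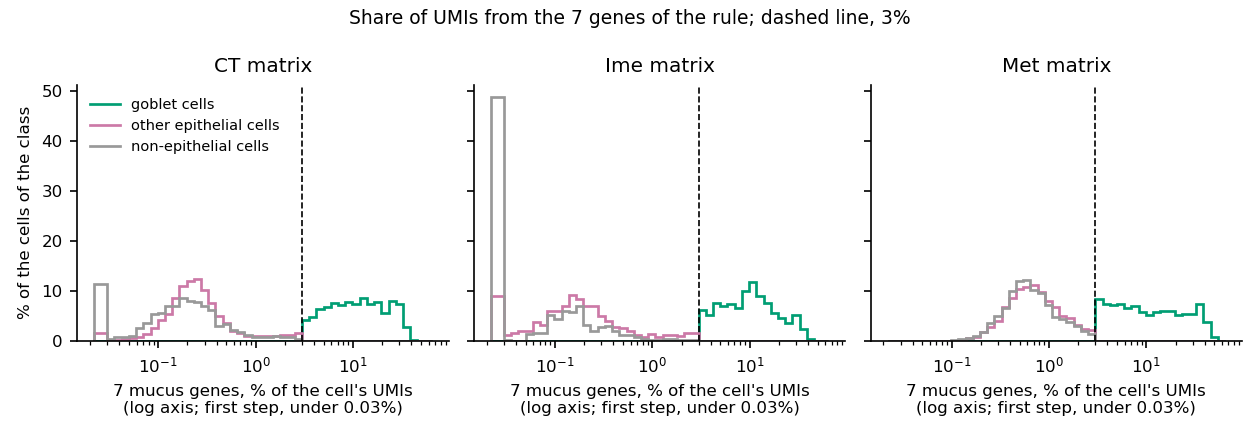
Distribution over cells of the share of UMIs from the 7 mucus genes (log axis, percent), against the percent of cells of each class, drawn for goblet cells, other epithelial cells and non-epithelial cells of each matrix, with the 3% threshold as a dashed line and cells under 0.03% in the first step. The non-epithelial cells of Met centre on 0.612%, to the right of those of CT (0.179%) and Ime (0.056%), and goblet cells reach 51.6%, 40.1% and 52.1%.

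Among the genes of the mucus itself, which define these cells and are given as a description, Muc2 stood at 38085, 30940.0 and 49290.0 CPM in CT, Ime and Met. Zg16 stood at 21405, 20847 and 38244 CPM and Fcgbp at 16552, 13195 and 21748 CPM. These 3 were highest in Met and lowest in Ime. Clca1 at 13018, 12845 and 12003 CPM and Tff3 at 11708, 12258 and 10984 CPM lay within a narrow range, as did Spink4 at 3352, 4328 and 3919 CPM and Agr2 at 3498, 3988 and 3523 CPM. In the non-epithelial cells Muc2 stood at 912, 556 and 2011 CPM.

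The 20 genes most weighted to goblet cells outside the 7 were a mixed set of secreted, traffic and regulatory genes. They were ranked by their level against other epithelial cells, with UMIs summed over the 3 matrices. Met gave 72007132 of the goblet cell UMIs, CT 13103741 and Ime 3982426, so the ranking leans on Met. The set held the defence products Slpi, Ang4, Retnlb, Sval1 and Spink1. Slpi had rank 1, though in CT it could not be told from background, as described below. Fer1l6, Sytl2, Capn9, Rab27a, Rab3b and Rep15 belong to families that act in membrane fusion, calcium-dependent proteolysis or vesicle traffic, and Spdef is the goblet transcription factor. Bcas1, Tpsg1, Gal3st2, Gpr20, Ano7, Ccn3, Ffar4 (a receptor for long-chain fatty acids) and F3 (tissue factor) completed the set. Bcas1 stood at 800.2, 904 and 859 CPM in goblet cells and at 37.2, 43.8 and 42.2 CPM in other epithelial cells, log2 ratios of 4.43, 4.37 and 4.35. Ang4 had ratios of 5.76, 5.41 and 3.48 and Retnlb of 5.25, 5.31 and 3.82 by the same measure. Sval1 stood at 1453, 1611 and 1508 CPM, and Rep15 at 160.5, 143 and 154 CPM, so Bcas1, Sval1 and Rep15 kept much the same level in the goblet cells of every matrix. Spink1, an inhibitor of trypsin, stood at 3782, 4788 and 5608 CPM and Ccn3, a matricellular protein, at 480.2, 366 and 487 CPM. Ang4, Retnlb and Slpi differed far more between matrices and are described below.

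**Figure D2:**
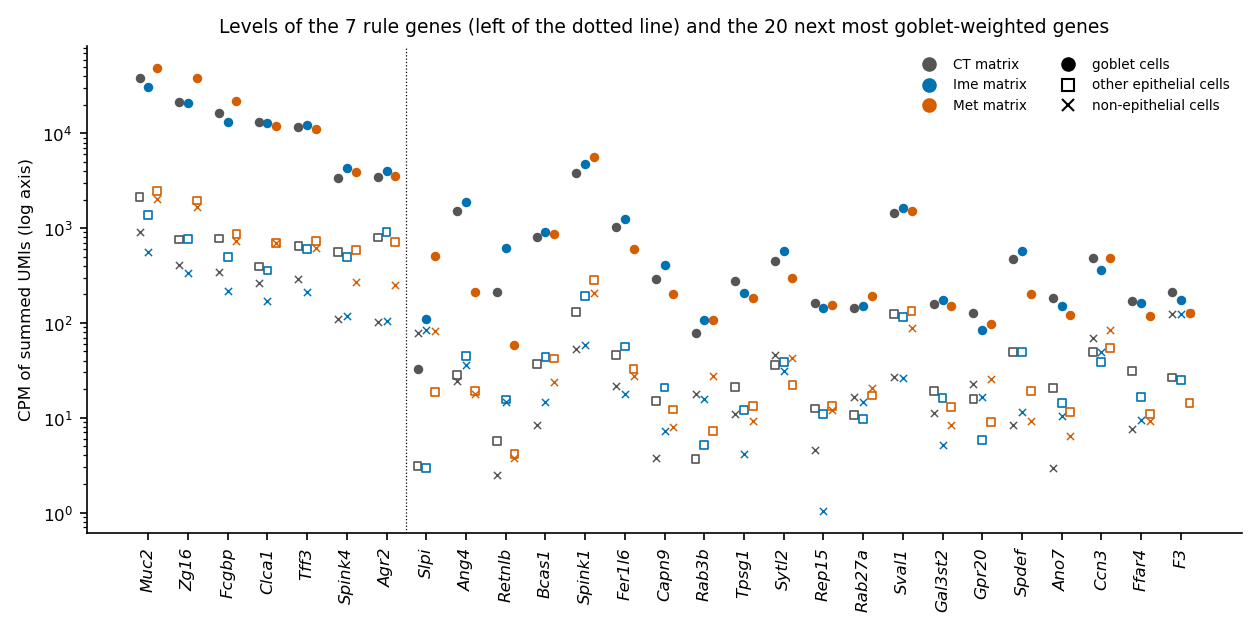
Levels in goblet cells (CPM of summed UMIs, log axis) of the 7 genes of the rule and the 20 genes most weighted to goblet cells, one mark per matrix and class, as dots for goblet cells, open squares for other epithelial cells and crosses for non-epithelial cells. Goblet cells of most genes lie close together in the 3 matrices, while Ang4 and Retnlb are low in Met and Slpi is high in Met.

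Goblet cells differed among themselves in how many transcripts of surface epithelium they held. They were split into 3 tiers of equal size within each matrix by the share of UMIs, outside the 7 genes, from a list of 26 surface epithelial genes such as Krt20 and Slc26a3. The tiers are ranges of this share, not types, and in CT 118 and 94 cells lay within 10% of the 2 limits, in Ime 63 and 36 and in Met 169 and 227. Median depth rose with the share, from 4065 to 8940 UMIs in CT and from 1644.5 to 5546 in Ime, and went from 6899.5 through 3696 to 23062 in Met, where the median share of non-epithelial markers was 0.177%, 0.624% and 0.354%. Genes of the splitting list are no finding here, and the values for the tiers are CPM of the UMIs outside the 7 genes, for the low, middle and high tiers.

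Of the mucus genes, Spink4 and Agr2 were highest in the low tier and Zg16, Clca1 and Tff3 in the high tier, in all 3 matrices. The cells were chosen by the summed share of the mucus genes, so a cell low in some of them needed more of the others. The part of this choice in the opposed order of these genes was not tested. Spink4 stood at 10825, 3860.0 and 867 CPM in CT, 14063, 6691 and 1155 CPM in Ime and 11326, 3958 and 1602 CPM in Met. Agr2 stood at 7548, 5328 and 1736 CPM in CT and 7866, 5131 and 1867 CPM in Met. Both fell at each step of the split. Zg16 stood at 4538, 27789 and 29827 CPM in CT, 2811, 16005 and 32402 CPM in Ime and 8519.8, 37556 and 64424 CPM in Met. Clca1 stood at 2647, 14594 and 19377 CPM in CT and 1899.8, 9250.2 and 21668 CPM in Met, and Tff3 at 2792, 13861 and 16882 CPM in CT and 2262, 9872 and 18980.0 CPM in Met. All 3 rose by several-fold from the low to the high tier. Muc2 stood at 63717, 47894 and 31541 CPM in CT and 47728, 39050.0 and 28175 CPM in Ime, falling at each step, and at 66753, 45617 and 57794 CPM in Met, where the high tier was above the middle one.

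Spdef, Reg4, Ccn3 and the cell cycle list were highest in the low tier. Spdef stood at 1215, 536 and 240.4 CPM in CT, 1525, 866 and 253 CPM in Ime and 476, 186 and 137 CPM in Met. Reg4, a lectin of the crypt base, stood at 3257, 784 and 141 CPM in CT, 7168, 2808 and 67.7 CPM in Ime and 1466, 221 and 59.4 CPM in Met. Both fell from the low to the high tier in every matrix, and more steeply for Reg4. Ccn3 stood at 1665, 536 and 87.3 CPM in CT and 1658, 413 and 115 CPM in Met. Mki67, which marks dividing cells, stood at 108, 55.2 and 6.89 CPM in CT, 192, 133 and 5.81 CPM in Ime and 231, 60.5 and 15.7 CPM in Met. The cell cycle list as a whole summed to 2003, 1106 and 302 CPM in CT and 2829.6, 864 and 335 CPM in Met. The list of ER folding and unfolded protein response genes summed to 15438, 11598 and 6404 CPM in CT, 16804, 13590.0 and 7053 CPM in Ime and 13518, 9824 and 5914 CPM in Met, and the mucin glycosylation list to 15008, 10977 and 8762 CPM in CT. Folding, glycosylation and cell cycle genes were thus lower in goblet cells with more surface transcripts, in the matrices named.

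Defence products peaked at different positions. Spink1 stood at 403, 3527 and 6145 CPM in CT, 306, 2425 and 8087 CPM in Ime and 577, 4087 and 10371 CPM in Met, rising to the high tier. Ang4 peaked in the middle tier, at 394, 2916 and 1613 CPM in CT, 2015, 3413 and 1549.5 CPM in Ime and 90.1, 386 and 263 CPM in Met. Retnlb stood at 254, 359 and 173 CPM in CT, 1245, 1158 and 308 CPM in Ime and 49.9, 63.3 and 77.3 CPM in Met. It was highest in the middle tier of CT, the low tier of Ime and the high tier of Met, and so had no common position. Slpi, a secreted inhibitor of leukocyte proteases, stood at 1.58, 43.7 and 194 CPM in Ime and 51.8, 476 and 901 CPM in Met, highest in the high tier of both, and at 14.7, 44.1 and 41.2 CPM in CT.

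**Figure D3:**
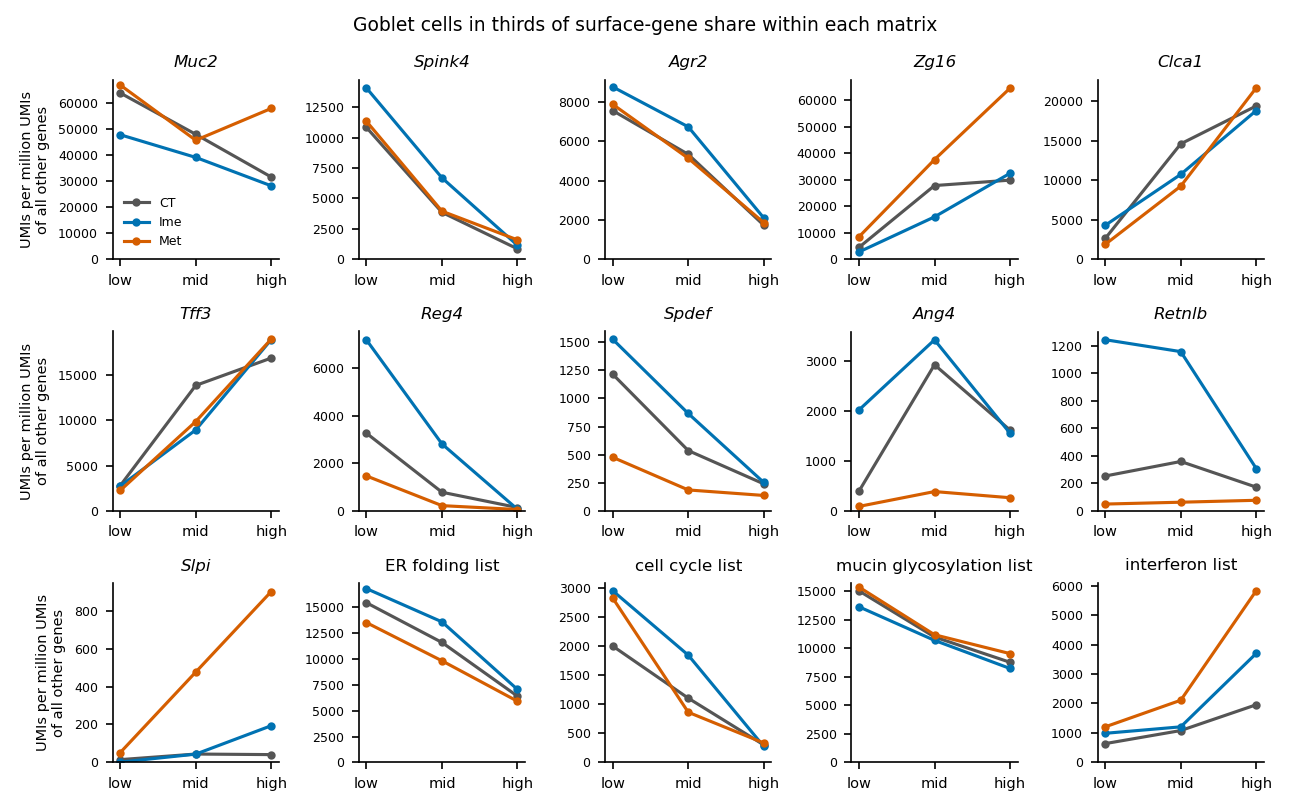
Levels in goblet cells by tier of the surface gene share, in CPM of UMIs outside the 7 genes on linear axes from 0, one line per matrix, for 11 genes and 4 list sums. Spink4, Agr2 and Spdef fall from the low to the high tier in every matrix and Zg16, Clca1 and Tff3 rise.

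Between matrices, 7281 genes whose mean level in goblet cells was 20 CPM or more were compared, without the 7 genes of the rule. A gene was counted where its ratio was at least 2-fold. Met was higher than CT at 105 genes (1.44%) and lower at 248 (3.41%), Ime was higher than CT at 43 (0.591%) and lower at 34 (0.467%), and Ime was higher than Met at 698 (9.59%) and lower at 262 (3.6%). The split for Met against CT turned over with the weight given to each cell, since it was 188 higher and 124 lower after thinning cells to 1000 UMIs and 206 higher and 93 lower with the mean of single-cell CPM. For Ime against Met it was 438 higher and 414 lower thinned, 522 and 444 with the mean, and 575 and 346 over UMIs outside the 7 genes, and for Ime against CT it was 58 and 69 with the mean. Without the cells holding at least 1% of non-epithelial markers, 104 genes were higher and 269 lower in Met than in CT. The median log2 ratio over all these genes was -0.20 for Met over CT, 0.03 for Ime over CT and 0.21 for Ime over Met. Most differences were shared with other epithelial cells, which passed 2-fold too at 278 of the 353 genes for Met and CT, 48 of 77 for Ime and CT and 741 of 960 for Ime and Met. The goblet cell ratio stood at least 1 log2 unit away from that of other epithelial cells at 36, 12 and 33 genes. With 1 matrix per name these are differences between matrices, and treatment, mouse and preparation cannot be told apart.

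Of the secreted products, Ang4, Retnlb and Reg4 were lower in Met than in CT, and Slpi, which is named as one of the largest ratios and is not in the list of secreted products, was higher. Ang4 stood at 1525 CPM (1504 to 1546) in CT, 1888 CPM (1846 to 1932) in Ime and 213 CPM (209.7 to 216) in Met, with 95% Poisson intervals. The log2 ratio of Met to CT was -2.84 in goblet cells and -0.55 in other epithelial cells, and lay between -3.00 and -2.33 over the other settings. An Ang4 UMI was found in 39.7%, 42.9% and 36.0% of goblet cells, in 28.1%, 32.5% and 14.6% of those thinned to 1000 UMIs, and in 3.80%, 3.14% and 6.42% of non-epithelial cells at the depths given above (1.63%, 2.22% and 2.22% thinned). Thinned shares, here and below, cover only cells with 1000 or more UMIs. These were 1297 of 1355, 736 of 870 and 2143 of 2440 goblet cells. Of the non-epithelial cells they were 922 of 1422, 316 of 893 and 2203 of 2524. Among such cells, fewer goblet cells of Met than of CT or Ime had an Ang4 UMI at equal depth. Retnlb stood at 214, 617 and 57.9 CPM, with a log2 ratio of -1.89 for Met over CT (other epithelial cells -0.46) and 1.53 for Ime over CT (other epithelial cells 1.47). After thinning, 14.6%, 24.9% and 5.65% of goblet cells and 0.108%, 0.949% and 0.318% of non-epithelial cells had a Retnlb UMI. Retnlb was lowest in Met and highest in Ime. Reg4 followed the same order at 862, 1801 and 384 CPM, with log2 ratios of -1.17 for Met over CT and 1.06 for Ime over CT. In other epithelial cells these were -1.04 and 0.38. Itln1, the lectin intelectin, had this order of the matrices too, at 14.6, 30.6 and 3.49 CPM.

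Slpi ran the other way. It stood at 32.5 CPM (29.5 to 35.7) in CT, 110.5 CPM (100.4 to 121) in Ime and 511 CPM (506 to 516) in Met, a log2 ratio of 3.97 for Met over CT (between 3.53 and 4.27 over the other settings). The ratio was 2.59 in other epithelial cells and 0.05 in non-epithelial cells, where Slpi stood at 78.7, 85.2 and 81.4 CPM. A Slpi UMI was found in 10.6%, 11.5% and 42.7% of goblet cells and in 2.70%, 6.25% and 16.7% of thinned ones, against 4.85%, 4.14% and 11.2% of non-epithelial cells and 3.69%, 6.01% and 4.27% of thinned ones. At equal depth the goblet cell share was below that of non-epithelial cells in CT, close to it in Ime and above it in Met, so Slpi in the goblet cells of CT cannot be told from background. Of the other secreted products, Lypd8, which keeps flagellated bacteria from the epithelium, stood at 5683, 4154 and 10752 CPM and Klk1, a kallikrein protease, at 1033, 849 and 1999.8 CPM, and both were higher by a similar ratio in other epithelial cells of Met (1.24 and 1.09 against 0.92 and 0.95 on the log2 scale). After thinning, 83.3%, 70.0% and 96.0% of goblet cells and 57.7%, 31.0% and 88.1% of non-epithelial cells had a Lypd8 UMI. The order of the matrices was thus the same in non-epithelial cells, and the part of background in the Lypd8 levels was not tested. Of the 22 listed secreted products, which do not include Slpi, 14 passed the level filter, of which 0 were 2-fold higher and 3 lower in Met, and 2 higher and 1 lower in Ime, each against CT. The one lower in Ime was Guca2a, the precursor of guanylin, at 1047, 385 and 1067 CPM. After thinning, 33.2%, 17.9% and 42.1% of goblet cells and 11.3%, 2.53% and 19.7% of non-epithelial cells had a Guca2a UMI. Non-epithelial cells thus had the same order of the matrices, and the part of background in the Guca2a levels was not tested. Of all genes compared, 1.44% were higher and 3.41% lower in Met, and 0.591% and 0.467% in Ime. The level filter uses the mean of the matrices and lets in a low gene where it is high, so the counts are a description. Klk1 and, below, Atoh1, Foxa3, Best2, Gcnt1, Hspa5 and Pdia6 in single cells were chosen after their values were seen.

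**Figure D4:**
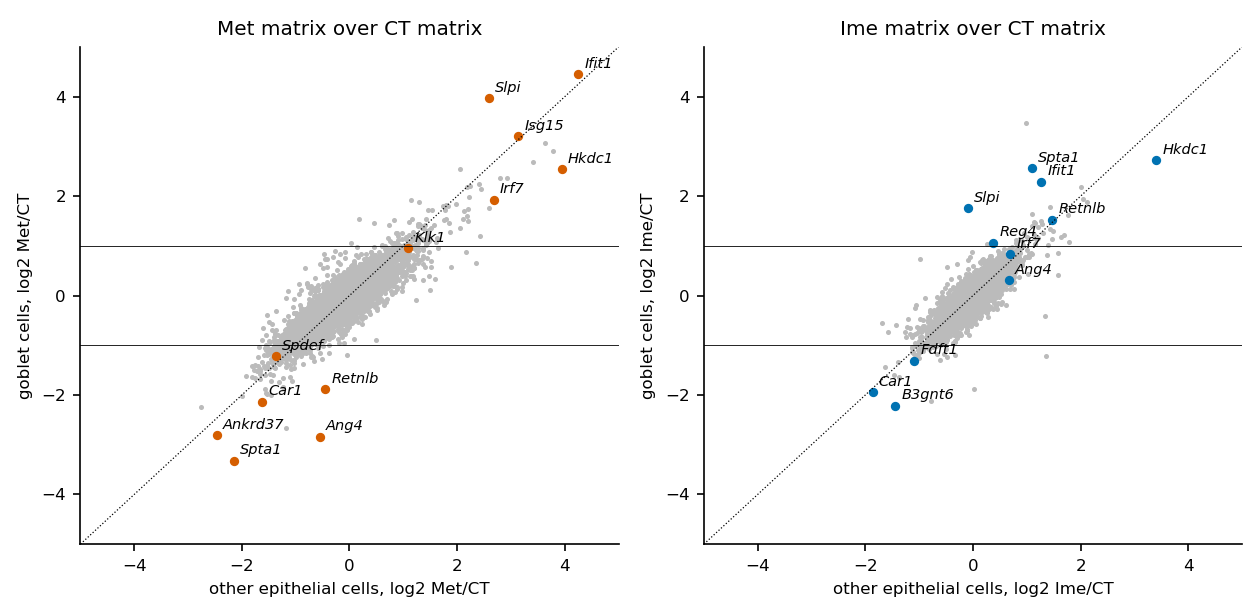
For each gene compared, the log2 ratio between matrices in goblet cells (vertical) against that in other epithelial cells (horizontal), for Met over CT and Ime over CT, with the diagonal dotted and 2-fold limits as lines. Most genes follow the diagonal, Ang4 (-2.84 against -0.55) and Retnlb lie below it for Met, and Slpi (3.97 against 2.59 for Met) lies above it for both.

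Of the listed regulators of goblet cells, Spdef was lower in Met than in CT by over 2-fold, and the list as a whole did not stand apart from all genes. Spdef stood at 468, 567 and 200.4 CPM, a log2 ratio of -1.22 (-1.27 to -1.18) for Met over CT, with -1.37 in other epithelial cells, and 43.8%, 46.9% and 26.2% of thinned goblet cells had a Spdef UMI, against 0.542%, 0.316% and 0.862% of thinned non-epithelial cells. Gfi1, which represses the enteroendocrine fate, stood at 60.8, 67.3 and 31.5 CPM. Atoh1, which starts the secretory lineage, stood at 363, 320.2 and 206 CPM, and Foxa3 at 339, 293 and 187 CPM. Gfi1, Atoh1 and Foxa3 differed from CT by less than 2-fold. The more widely expressed epithelial factors Elf3 at 1776, 2256 and 1449 CPM and Klf4 at 1086, 939 and 1432 CPM differed by less than 2-fold. Of the 16 regulators 15 passed the level filter, with 0 higher and 1 lower by 2-fold in Met, beside 1.44% and 3.41% of all genes compared. In Met 12 stood below the CT level, with a median log2 ratio of -0.21, which is close to the -0.20 of all genes compared.

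Few genes that build and release mucus differed by 2-fold between matrices, as held for all genes compared (1.44% higher and 3.41% lower for Met over CT, 0.591% and 0.467% for Ime over CT). Of 43 genes of mucin glycosylation, 39 passed the filter and 0 differed by 2-fold between Met and CT, while 2 were lower in Ime. These were B3gnt6, which makes the core 3 O-glycan of colonic mucin, at 32.6, 7.03 and 24.3 CPM (log2 ratio -2.21 for Ime over CT), and the sulfotransferase Gal3st1 at 60.5, 24.9 and 70.9 CPM. Both were lower in the other epithelial cells of Ime too (-1.45 and -1.11). The sialyltransferase St6galnac6 at 1161, 846 and 1411 CPM and the N-acetylglucosaminyltransferase B3gnt7 at 828, 572 and 975.2 CPM, were lowest in Ime.

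Of 52 genes of ER folding and the unfolded protein response, 47 passed the filter. In Met 0 were higher and 1 lower by 2-fold (1.44% and 3.41% of all genes), 31 stood below CT, and the median was -0.16 against -0.20 for all genes. In Ime 0 passed 2-fold in either direction, 33 stood above CT and the median was 0.11 against 0.03. The one lower in Met was Eif2ak3, the ER stress kinase PERK, at 165, 168 and 78.3 CPM. Ern2, the epithelial IRE1-beta sensor that is selective for goblet cells, stood at 713, 648 and 385 CPM, a log2 ratio of -0.89 for Met over CT. Txndc5, a disulfide isomerase, stood at 667, 699 and 506 CPM.

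Of 26 genes of granule traffic and exocytosis, 22 passed the filter, with 0 higher and 1 lower by 2-fold in Met and 0 in Ime. Of all genes compared, 1.44% were higher and 3.41% lower in Met, and 0.591% and 0.467% in Ime. In Met 18 stood below CT (median -0.32, all genes -0.20) and in Ime 18 stood above it (median 0.19, all genes 0.03). The one lower in Met was Sytl4, a Rab27 effector, at 36.2, 42.2 and 17.7 CPM. Fer1l6, of the ferlin family, stood at 1028, 1239 and 606 CPM, Sytl2 at 448, 574 and 298 CPM and the vesicle SNARE Vamp2 at 134, 189 and 68.0 CPM. Rab27a, a GTPase that docks secretory granules, went the other way at 145, 150.2 and 192 CPM. Of the membrane-bound mucins, Muc13 stood at 4468, 4610.3 and 5582 CPM and Muc4 at 210.1, 189 and 414 CPM, the latter highest in Met.

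Of 22 ion and water transport genes 20 passed the filter, with 1 higher and 2 lower by 2-fold in Met and 1 lower in Ime. Beside these stand 1.44% higher and 3.41% lower of all genes in Met and 0.467% lower in Ime, and nothing is read from the counts. Car1, the cytosolic carbonic anhydrase, was lower in both, at 2520.2, 655 and 574 CPM. It was also lower in other epithelial cells, with log2 ratios of -1.63 for Met and -1.87 for Ime. A Car1 UMI was found in 34.4%, 13.5% and 21.5% of thinned goblet cells and in 17.6%, 3.80% and 11.03% of thinned non-epithelial cells. Both shares were lower in Ime and Met than in CT, and the part of background in the Car1 levels was not tested. Slc4a4, a bicarbonate importer on the basolateral side, stood at 140.1, 109 and 46.9 CPM and Best2, the bicarbonate channel of colonic goblet cells, at 405, 512 and 262 CPM. Both were lowest in Met.

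The 38 interferon-induced genes in the matrices summed, with no filter on level, to 1290.0, 2348 and 3306 CPM in the goblet cells of CT, Ime and Met. They summed to 1327, 2162 and 3982 CPM in other epithelial cells and to 1549.6, 1671 and 1945 CPM in non-epithelial cells. Many of these genes carry the interferon-stimulated response element (ISRE), the site of the factor ISGF3, next to their start. The promoters of 2 genes with large ratios are printed below from 250 bases before to 50 after the start (RefSeq, GRCm38.p6, 5' to 3' on the strand of the gene), with matches to GAAA, any 2 bases and GAAA on either strand in capitals. The Ifit1 window (chr19:34640639-34640938, plus strand) holds 2 matches and the Isg15 window (chr4:156200769-156201068, minus strand) holds 3 that overlap.
Ifit1: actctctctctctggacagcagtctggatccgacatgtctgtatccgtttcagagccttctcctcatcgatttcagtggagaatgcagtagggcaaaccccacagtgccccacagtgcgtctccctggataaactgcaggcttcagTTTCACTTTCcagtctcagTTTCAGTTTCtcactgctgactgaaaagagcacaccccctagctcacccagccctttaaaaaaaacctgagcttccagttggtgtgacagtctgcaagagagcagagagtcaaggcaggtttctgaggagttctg
Isg15: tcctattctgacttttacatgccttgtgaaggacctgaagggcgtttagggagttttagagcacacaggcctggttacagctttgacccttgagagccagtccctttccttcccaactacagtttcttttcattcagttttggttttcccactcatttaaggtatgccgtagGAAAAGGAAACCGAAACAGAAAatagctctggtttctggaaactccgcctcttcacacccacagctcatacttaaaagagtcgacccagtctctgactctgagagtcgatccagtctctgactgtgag
A match was present in 19 of the 28 listed genes with a window (67.9%), against 1079 of 27025 windows of all genes (3.99%). None was present in the windows found for 3 of the 7 mucus genes (0) or for 15 secreted products (0), which says only that these letters are not there.

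Ifit1, which binds foreign RNA, stood at 3.13, 15.3 and 68.4 CPM, and Isg15, a ubiquitin-like modifier, at 31.3, 87.6 and 289 CPM. Irf7, the factor that amplifies interferon signalling, stood at 126, 224 and 479.6 CPM, and Oasl2 at 59.0, 202 and 260.2 CPM. All 4 were lowest in CT and highest in Met. Of 41 listed genes 38 were in the matrices and 27 passed the level filter, which uses the mean of the matrices and so lets in a low gene where it is high. Of these 14 were 2-fold higher and 0 lower in Met (1.44% and 3.41% of all genes compared) and 12 higher and 0 lower in Ime (0.591% and 0.467%), counts that this filter favours and that are given as a description. An Isg15 UMI was found in 9.82%, 11.4% and 52.3% of goblet cells and, after thinning, in 2.47%, 3.80% and 13.6%, against 1.62%, 1.23% and 20.5% of non-epithelial cells (0.759%, 1.58% and 6.08% thinned). In Met the list summed to 1208, 2111 and 5831 CPM in the low, middle and high tiers of surface share, with Irf7 at 86.4, 223 and 923 CPM. In CT it stood at 638, 1082 and 1957 CPM.

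Among the genes with the largest decreases in Met were Ankrd37 at 53.5, 83.4 and 7.62 CPM, the prolyl hydroxylase gene Egln3 at 136, 125 and 34.9 CPM and endothelin 1 (Edn1) at 95.5, 95.4 and 23.8 CPM. Egln3 and Edn1 were near equal in CT and Ime. Hkdc1, a hexokinase, was higher in both drug-named matrices, at 3.66, 24.1 and 21.2 CPM, and in their other epithelial cells (log2 ratios to CT of 3.94 in Met and 3.41 in Ime). For the lists that follow, the median log2 ratio to CT of all genes compared was -0.20 in Met and 0.03 in Ime. By 2-fold, 1.44% of all genes were higher and 3.41% lower in Met, and 0.591% and 0.467% in Ime. Of 21 cholesterol synthesis genes past the filter, 20 stood lower in Ime than in CT (median -0.45, other epithelial cells -0.20). Fdft1, squalene synthase, was lower by over 2-fold, at 224, 90.1 and 192 CPM. Among 35 nuclear genes of respiratory complex I past the filter, 0 differed by 2-fold, and 30 in Met and 26 in Ime stood above CT (medians 0.27 and 0.16). Of the 13 transcripts of the mitochondrial genome, 12 stood above CT in Met, 3 of them by 2-fold, with 1 lower by 2-fold (median 0.50), and in Ime 6 stood above CT, 2 of them by 2-fold, and 7 below (median -0.02). The one lower in Met was mt-Nd6 at 1047, 2176 and 316 CPM, and mt-Co1 stood at 810.5, 2301 and 841 CPM. The list of the integrated stress response had 18 members past the filter, of which 0 differed by 2-fold in either matrix. Nupr1, a stress-induced chromatin protein of that list, stood at 1037, 1561 and 715 CPM.

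Some ratios rested on few cells, or moved in the same way in non-epithelial cells. Of the UMIs of Iglc1, an antibody light chain gene, 78.2% in the goblet cells of Ime lay in 1 cell. For Gcg, the proglucagon gene, the single highest cell held 66.7% to 76.2% of the UMIs. The pancreatic genes Cela2a and Ctrb1 were higher in Ime, and the acinar list summed to 203, 572 and 192 CPM in goblet cells and to 136, 551 and 106 CPM in non-epithelial cells. Their part in other results was not tested.

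In bulk colon after 4 weeks, the genes of goblet cells were tested with the edgeR quasi-likelihood test adjusted over 18665 genes by the Benjamini-Hochberg method and called at 0.05. Both drugs were compared with the same 3 control libraries, and levels are CPM scaled by TMM, given per library in the order of replicates 1 to 3. Metformin raised 2168 genes (11.6%) and lowered 1501 (8.04%), imeglimin raised 1487 (7.97%) and lowered 946 (5.07%), and imeglimin exceeded metformin at 27 genes (0.145%) and fell short of it at 87 (0.466%). These totals depended on single libraries: leaving out 1 gave 2066 (without metformin 2) to 3429 genes for metformin in place of 3669, 932 (without control 3) to 1623 for imeglimin in place of 2433, and 11 (without metformin 3) to 543 (without imeglimin 3) between the drugs in place of 114, where DESeq2 gave 1217. Bulk tissue cannot tell more goblet cells from more RNA in each. Shared epithelial markers rose in 6 of 12 with metformin, while fibroblast markers fell in 9 of 14 and smooth muscle markers in 7 of 10. With imeglimin 1 of 12 epithelial markers rose, fibroblast markers fell in 3 of 14 and smooth muscle markers had a median log2 fold change of -0.14. Control replicate 3 also held pancreatic transcripts, with Cela2a at 3161 CPM against at most 0.286 CPM in the other libraries. The part of these in the values below was not tested. Nothing in the labels ties each bulk library to its own mouse, so p-values cover the spread among these libraries, which may be technical.

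Of the 7 mucus genes, 3 rose with metformin and 2 with imeglimin and 0 fell, beside 11.6% and 7.97% of all genes that rose and 8.04% and 5.07% that fell. Zg16 stood at 2306, 2104 and 2496 CPM in the control, 2827, 4259 and 3665 CPM in the imeglimin and 5424, 4827 and 4541 CPM in the metformin libraries. All treated libraries lay above all controls, with log2 fold changes of 1.10 ± 0.14 (SE, adjusted p = 0.000802, edgeR) for metformin and 0.64 ± 0.14 (SE, adjusted p = 0.0162, edgeR) for imeglimin, the latter lost without control 1 (adjusted p up to 0.0548) or control 2. Tff3 stood at 368, 299.7 and 374 CPM in the control, 367, 504 and 457 CPM in the imeglimin and 795, 726 and 702 CPM in the metformin libraries. It rose with metformin by 1.09 ± 0.13 (SE, adjusted p = 0.000549, edgeR), and the metformin libraries lay above the other 6. Fcgbp stood at 3294, 2776 and 3421 CPM in the control, 3655, 3786 and 3219.5 CPM in the imeglimin and 5861, 4164 and 3944 CPM in the metformin libraries, a change of 0.56 ± 0.15 (SE, adjusted p = 0.0248, edgeR) with metformin that was lost without any 1 of the controls (adjusted p up to 0.0854). Agr2 stood at 501, 595 and 426 CPM in the control, 819.7, 945 and 598 CPM in the imeglimin and 647, 611 and 527 CPM in the metformin libraries and rose with imeglimin by 0.63 ± 0.17 (SE, adjusted p = 0.0367, edgeR), which was lost without control 1, control 3, imeglimin 1 or imeglimin 2 and with the 2 groups fitted alone (adjusted p up to 0.131). Muc2 stood at 1557, 2651 and 2008 CPM in the control, 2686, 3672 and 1898 CPM in the imeglimin and 2390.1, 2374 and 2094 CPM in the metformin libraries, where the groups overlapped. Its change was 0.14 ± 0.23 (SE, adjusted p = 0.701, edgeR) with metformin and 0.41 ± 0.23 (SE, adjusted p = 0.282, edgeR) with imeglimin, neither past the threshold.

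Slpi also rose in bulk colon with metformin. It stood at 1.15, 2.37 and 0.980 CPM in the control, 1.63, 5.70 and 5.98 CPM in the imeglimin and 8.27, 15.9 and 12.6 CPM in the metformin libraries, and all metformin libraries lay above all others, with a log2 fold change of 3.05 ± 0.51 (SE, adjusted p = 0.0032, edgeR). With imeglimin it was 1.59 ± 0.50 (SE, adjusted p = 0.0628, edgeR), and it passed the threshold with the replicate number as a block at 1.497 (edgeR adjusted p = 0.0278), with DESeq2, and without control 2 or imeglimin 1. Spink1 stood at 205, 112 and 195 CPM in the control, 146, 182 and 192 CPM in the imeglimin and 346, 375 and 298 CPM in the metformin libraries and rose with metformin by 0.99 ± 0.20 (SE, adjusted p = 0.00886, edgeR). Ang4 gave no call. It stood at 58.7, 80.2 and 374 CPM in the control, 134, 7.07 and 1.51 CPM in the imeglimin and 91.3, 3.07 and 2.55 CPM in the metformin libraries, a log2 fold change of -2.41 ± 1.62 (SE, adjusted p = 0.318, edgeR) for metformin and -1.86 ± 1.58 (SE, adjusted p = 0.487, edgeR) for imeglimin. With each drug 2 of the 3 libraries lay below every control and 1 lay within the control range. Retnlb stood at 2.54, 16.1 and 87.7 CPM in the control, 21.4, 1.32 and 3.21 CPM in the imeglimin and 24.9, 6.93 and 3.01 CPM in the metformin libraries, with overlapping groups and a change of -1.62 ± 1.24 (SE, adjusted p = 0.382, edgeR) with metformin. Spdef stood at 30.7, 44.9 and 35.6 CPM in the control, 57.1, 48.1 and 28.1 CPM in the imeglimin and 52.1, 34.0 and 27.5 CPM in the metformin libraries, with overlapping groups and a change of 0.03 ± 0.28 (SE, adjusted p = 0.953, edgeR) with metformin, and Reg4 changed by -0.46 ± 0.24 (SE, adjusted p = 0.202, edgeR). The lower levels of Spdef and Reg4 in the goblet cells of Met thus had no counterpart past the threshold in bulk colon. The assays differed in time, unit and cells, so no ratio was formed between them.

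**Figure D5:**
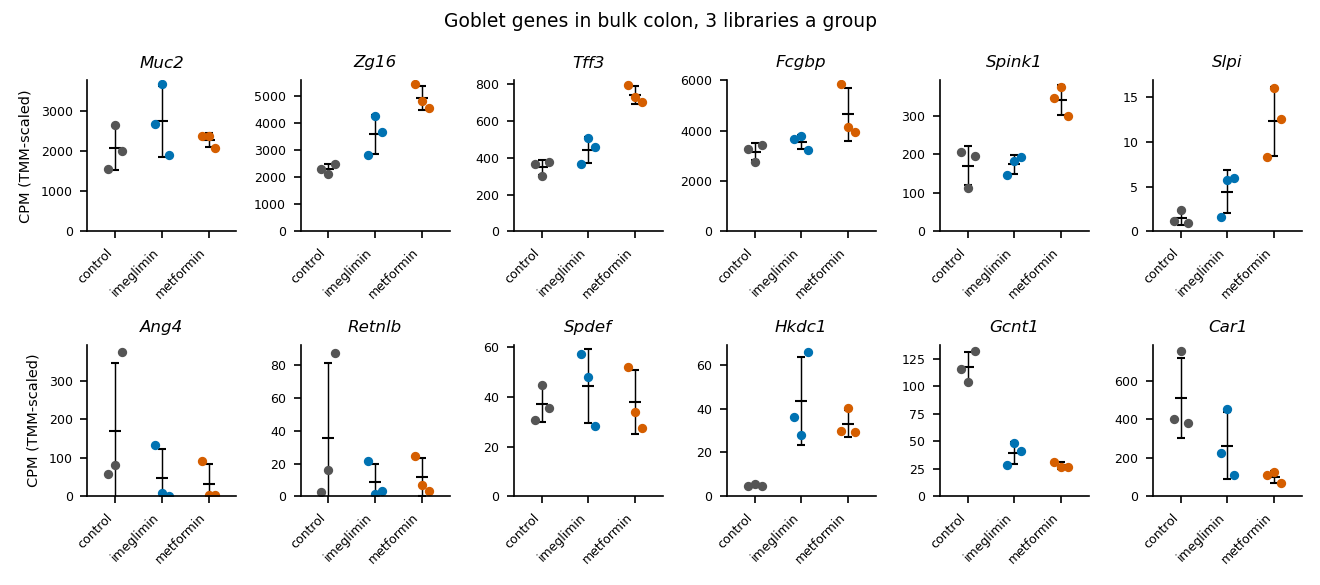
Bulk colon levels (TMM-scaled CPM) of 12 genes described for goblet cells, with each library as a point and the mean ± SD of 3 libraries per group, on linear axes from 0. Zg16, Tff3, Spink1 and Slpi are higher in the metformin libraries, Gcnt1 is lower with both drugs, and Ang4 and Retnlb overlap widely. Lower SD bars that would pass below 0 are cut off by the axis.

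Of the mucin glycosylation genes, 6 rose and 4 fell with metformin and 9 rose and 3 fell with imeglimin, of 43 tested, beside 11.6% higher and 8.04% lower of all genes with metformin and 7.97% and 5.07% with imeglimin. Nothing is read from the counts with metformin, which lie near those shares. Gcnt1, a core 2 O-glycan branching enzyme, stood at 115, 104 and 132 CPM in the control, 28.5, 48.4 and 40.9 CPM in the imeglimin and 31.4, 26.1 and 26.3 CPM in the metformin libraries. It fell with both drugs, with changes of -2.07 ± 0.18 (SE, adjusted p = 0.000201, edgeR) with metformin and -1.58 ± 0.17 (SE, adjusted p = 0.00292, edgeR) with imeglimin on the log2 scale, with no overlap of either drug with the controls. In single cells Gcnt1 stood at 89.3, 64.3 and 67.8 CPM in goblet cells, and its log2 ratio to CT was -0.40 in Met and -0.47 in Ime there, against -1.53 and -1.21 in other epithelial cells. The sulfate transporter Slc26a2 rose with metformin by 0.85 ± 0.12 (SE, adjusted p = 0.00158, edgeR), and B4galt1 and Galnt6 fell, with log2 fold changes of -0.89 ± 0.17 (SE, adjusted p = 0.00661, edgeR) and -0.62 ± 0.12 (SE, adjusted p = 0.00585, edgeR).

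ER folding genes rose mainly with imeglimin, in 17 of 50 tested with 2 lower (median 0.24, all genes -0.02), against 7 higher and 2 lower with metformin (median 0.14, all genes -0.05). Of all genes 7.97% rose with imeglimin and 11.6% with metformin. Several carry the ER stress response element (ERSE, spelled CCAAT, any 9 bases and CCACG, searched on both strands), which ATF6 binds together with NF-Y. It was present in 10 of 40 listed genes with a window, against 37 of 27025 of all genes (0.137%). The promoters of 2 genes that rose with imeglimin show it in capitals, with 1 match each (RefSeq, GRCm38.p6, chr2:34771840-34772139 and chr12:17266339-17266638, both plus strand).
Hspa5: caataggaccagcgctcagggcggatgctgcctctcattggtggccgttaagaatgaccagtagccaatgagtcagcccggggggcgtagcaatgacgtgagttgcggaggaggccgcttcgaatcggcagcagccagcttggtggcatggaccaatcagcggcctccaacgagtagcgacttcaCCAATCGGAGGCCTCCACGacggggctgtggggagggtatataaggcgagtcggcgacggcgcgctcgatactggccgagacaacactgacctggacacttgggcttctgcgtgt
Pdia6: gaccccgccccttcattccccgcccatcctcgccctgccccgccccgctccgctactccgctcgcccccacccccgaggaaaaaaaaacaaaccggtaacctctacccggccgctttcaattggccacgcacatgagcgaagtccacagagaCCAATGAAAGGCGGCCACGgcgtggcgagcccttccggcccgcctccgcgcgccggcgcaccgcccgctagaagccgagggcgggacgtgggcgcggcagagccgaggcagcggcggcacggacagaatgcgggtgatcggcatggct
Hspa5, the ER chaperone BiP, stood at 360.2, 465 and 488 CPM in the control, 720.2, 753 and 630.1 CPM in the imeglimin and 562, 678 and 454 CPM in the metformin libraries. It rose with imeglimin by 0.68 ± 0.15 (SE, adjusted p = 0.0205, edgeR), a call lost without control 1, imeglimin 1 or imeglimin 2. Pdia6, a disulfide isomerase, stood at 106, 117 and 111 CPM in the control, 175, 182 and 156 CPM in the imeglimin and 138, 149.7 and 118 CPM in the metformin libraries and rose with imeglimin by 0.62 ± 0.10 (SE, adjusted p = 0.00594, edgeR). Calr, Canx, Hsp90b1 and Creld2 rose with imeglimin as well, with log2 fold changes of 0.64 ± 0.09 (SE, adjusted p = 0.00426, edgeR), 0.50 ± 0.07 (SE, adjusted p = 0.00419, edgeR), 0.59 ± 0.10 (SE, adjusted p = 0.00723, edgeR) and 0.80 ± 0.15 (SE, adjusted p = 0.0101, edgeR). Dnajb9, a co-chaperone of BiP, rose with metformin by 0.77 ± 0.11 (SE, adjusted p = 0.0015, edgeR). Ern2 fell with metformin, with a log2 fold change of -0.46 ± 0.11 (SE, adjusted p = 0.0158, edgeR), which was lost without metformin 2 or metformin 3. In goblet cells none of these chaperones differed by 2-fold between matrices, with Hspa5 at 214, 203 and 250.5 CPM and Pdia6 at 206, 249 and 158 CPM.

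Of 26 granule genes 5 rose with each drug and 1 fell with metformin, beside 11.6% and 8.04% of all genes with metformin and 7.97% higher with imeglimin. Rab27a stood at 60.9, 57.8 and 59.5 CPM in the control, 66.8, 94.6 and 90.6 CPM in the imeglimin and 92.6, 82.9 and 86.0 CPM in the metformin libraries, a rise of 0.55 ± 0.12 (SE, adjusted p = 0.0105, edgeR) with metformin and 0.50 ± 0.12 (SE, adjusted p = 0.0233, edgeR) with imeglimin, the latter lost without any 1 control, imeglimin 2 or imeglimin 3. Rep15, a Rab15 effector, rose with metformin by 0.45 ± 0.10 (SE, adjusted p = 0.0113, edgeR), and Vamp8, the granule SNARE, by 0.43 ± 0.06 (SE, adjusted p = 0.00128, edgeR). Vamp8 changed with imeglimin by 0.23 ± 0.06 (SE, adjusted p = 0.0302, edgeR), which was lost in 9 of 11 other settings, among them the replicate block (edgeR adjusted p = 0.0578). Of the transporters, Car1 stood at 402, 753 and 378 CPM in the control, 225, 451 and 109.9 CPM in the imeglimin and 109, 128 and 67.4 CPM in the metformin libraries and fell with metformin, with a log2 fold change of -2.33 ± 0.48 (SE, adjusted p = 0.00869, edgeR), and with imeglimin the change was -0.96 ± 0.46 (SE, adjusted p = 0.2, edgeR). With the replicate block the imeglimin change was -1.10 (edgeR adjusted p = 0.0178), and it also passed without imeglimin 2. Hkdc1 stood at 4.47, 5.54 and 4.85 CPM in the control, 36.3, 28.0 and 66.1 CPM in the imeglimin and 29.8, 40.3 and 29.4 CPM in the metformin libraries, with a rise of 2.74 ± 0.30 (SE, adjusted p = 0.000404, edgeR) with metformin and 3.13 ± 0.30 (SE, adjusted p = 0.00233, edgeR) with imeglimin. Ankrd37, Edn1 and Egln3, named for their low level in Met, fell with metformin in bulk, with log2 fold changes of -1.80 ± 0.37 (SE, adjusted p = 0.0085, edgeR), -1.33 ± 0.29 (SE, adjusted p = 0.0122, edgeR) and -1.37 ± 0.18 (SE, adjusted p = 0.000936, edgeR). All 37 tested complex I genes rose with metformin and 32 with imeglimin.

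Of 40 interferon-induced genes tested, 4 rose with metformin and 2 with imeglimin, shares no higher than those of all genes (11.6% and 7.97%). The list thus did not stand apart by the number of calls. Its median log2 fold change was above that of all genes, at 0.49 against -0.05 with metformin and 0.28 against -0.02 with imeglimin. The shift of the list as a whole was not tested. Ifit1 stood at 15.7, 5.48 and 13.99 CPM in the control, 23.6, 21.9 and 66.4 CPM in the imeglimin and 50.3, 23.98 and 71.1 CPM in the metformin libraries and rose with metformin by 2.04 ± 0.54 (SE, adjusted p = 0.0266, edgeR), which was lost without any 1 control or metformin 3. Irf7 stood at 64.3, 57.7 and 77.5 CPM in the control, 83.7, 108 and 128 CPM in the imeglimin and 149.9, 113 and 181 CPM in the metformin libraries, with 1.15 ± 0.20 (SE, adjusted p = 0.00349, edgeR) for metformin and 0.68 ± 0.19 (SE, adjusted p = 0.0461, edgeR) for imeglimin, the latter lost without any 1 control, imeglimin 2 or imeglimin 3 and with no filter on low counts. Isg15 changed by 1.70 ± 0.54 (SE, adjusted p = 0.052, edgeR) with metformin, or 1.74 (edgeR adjusted p = 0.00341) with the replicate block, and it also passed with DESeq2 and with the 2 groups fitted alone. Cholesterol synthesis genes rose in 15 of 22 with imeglimin (median 0.91) and 4 of 22 with metformin, and Fdft1 stood at 44.4, 52.9 and 50.8 CPM in the control, 64.0, 113 and 101.3 CPM in the imeglimin and 58.9, 56.2 and 55.9 CPM in the metformin libraries, a rise of 0.91 ± 0.17 (SE, adjusted p = 0.0105, edgeR) with imeglimin. This is the opposite order to the goblet cells of Ime, where Fdft1 was below CT.

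Between the drugs at equal dose and time, 4 genes of the goblet cell lists differed in bulk colon, with p-values adjusted over the 18665 genes tested. They were 1 of 7 mucus genes, 1 of 16 secreted products, 1 of 50 ER folding genes and 1 of 22 transport genes. Of 43 mucin glycosylation, 26 granule, 16 regulator and 6 membrane mucin genes, 0 differed. Imeglimin was higher at 0.145% of all genes and lower at 0.466%, and nothing is read from the count of 4. Tff3 differed by -0.74 (95% interval -1.02 to -0.47, edgeR adjusted p = 0.0402) for imeglimin against metformin, but the call was lost without imeglimin 1 or 2 or any 1 metformin library, with no filter on low counts, with the 2 groups alone and with the replicate block (edgeR adjusted p = 0.0649). Aqp8, a water channel of the transport list, is also on the list of absorptive colonocyte markers, and bulk colon does not tell which cells its change lies in. Aqp8 stood at 531, 527 and 634 CPM in the control, 303, 337 and 335 CPM in the imeglimin and 851, 646 and 838 CPM in the metformin libraries, a difference of -1.26 (95% interval -1.52 to -0.998, edgeR adjusted p = 0.0074), with the metformin libraries above and the imeglimin libraries below every control. Its rise with metformin of 0.46 ± 0.12 (SE, adjusted p = 0.0207, edgeR) was lost without control 1, control 2, metformin 1 or metformin 3. Dmbt1, a scavenger receptor of the mucosa, stood at 2848, 2291 and 2426 CPM in the control, 2621, 3045 and 2962 CPM in the imeglimin and 1693, 1548 and 1760.5 CPM in the metformin libraries and differed by 0.79 (95% interval 0.57 to 1.00, edgeR adjusted p = 0.0138), lost without imeglimin 2, metformin 2 or metformin 3. Dnajb9 differed by -0.62 (95% interval -0.87 to -0.38, edgeR adjusted p = 0.0474), lost without imeglimin 1 or 2 or any 1 metformin library, with no filter on low counts and with the replicate block (edgeR adjusted p = 0.0644). Of genes that did not pass the threshold, Muc2 differed by 0.27 (95% interval -0.25 to 0.78, edgeR adjusted p = 0.575), Zg16 by -0.46 (95% interval -0.76 to -0.16, edgeR adjusted p = 0.12), Slpi by -1.46 (95% interval -2.50 to -0.42, edgeR adjusted p = 0.144) and Ang4 by 0.56 (95% interval -2.91 to 4.02, edgeR adjusted p = 0.881). The interval of Ang4 is too wide to say whether the drugs differ there. In single cells Slpi was higher in Met than in Ime and Ang4 lower, with log2 ratios of Ime to Met of -2.21 and 3.15 in goblet cells and -2.69 and 1.22 in other epithelial cells.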

How the data were processed

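Single-cell colon (1 sample, 3 matrices) and bulk colon (9 libraries) were used. The authors deposited whole-number UMI counts for 19070 probe genes, made with Cell Ranger 9.0.0 per the file headers, and gene counts for bulk colon, whose counting tool, strand setting and build are not given in the sources used here. Per the submitters' processing notes, the builds were mm10 and GRCm39 and the tools Cell Ranger, HISAT2, StringTie, Trimmomatic and FastQC, with no roles given. The members, gene lists and tests were chosen with earlier results of these data known.

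UMIs were summed over goblet cells and given as CPM of their total (13103741, 3982426 and 72007132 UMIs in CT, Ime and Met), so cells with more UMIs weigh more. Intervals of 95% are exact Poisson or binomial. Non-epithelial cells had at least 3% of UMIs from non-epithelial markers. No doublet caller was run, and doublets with other epithelial cells were not looked for. Single-cell genes named are the 7 rule genes, the 10 largest ratios each way per pair of matrices (at least 50 CPM and 20 UMIs in the higher matrix), a few members per list, and the 20 genes most weighted to goblet cells (at least 100 CPM).

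Bulk libraries held 32236291 to 44373717 reads over 45777 genes. They were fitted with edgeR 4.0.16 (R 4.3.3, TMM scaling, filterByExpr, quasi-likelihood test, all 9 libraries, Benjamini-Hochberg adjustment) and, as an alternative, with DESeq2 1.42.0. The scripts were tested on simulated data. Replicates differed by more than sampling noise. The labels carry a batch tag, equal to the replicate number in every bulk library, and the pairing across groups rests on this tag. Deviations of same-numbered libraries correlated at a mean r of 0.0687, others at -0.0344, and 3 of 9 pairs were over 0.1. Python 3.11.15, numpy 2.4.6, pandas 2.3.3 and scipy 1.17.1 were used. Promoters came from RefSeq (GRCm38.p6), matched by symbol.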

Additional observations from a re-analysis of the deposited data

How the results depend on the processing

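With no replicate matrices, single-cell values carry counting error only, and low genes in Ime rest on the fewest UMIs. The share of goblet cells moved beyond its counting interval with the threshold, to 18.8% (2%) and 14.3% (5%) in CT, 20.1% and 14.9% in Ime and 23.4% and 14.6% in Met. It was 19.9% in Ime with 500 detected genes, 16.02% in CT and 14.9% in Met without cells holding non-epithelial markers, and 17.2% in Met with the threshold raised by the non-epithelial median, which was chosen after seeing the data. Counts of 2-fold genes moved when cells were thinned to 1000 UMIs, to 188 higher and 124 lower for Met against CT, 106 and 120 for Ime against CT and 438 and 414 for Ime against Met. With the mean of single-cell CPM they were 206 and 93 for Met against CT, 69 lower for Ime against CT and 444 lower for Ime against Met. Of the goblet cell ratios of named genes recomputed under these settings, 2421 stayed within the counting interval and 1190 moved, among them ratios under 2-fold that crossed 0. In 6 cases a ratio of at least 2-fold changed direction. Those were Chgb, Met over CT, at 0.13 thinned and 0.19 with the mean, Klf2, Met over CT, at 0.064 thinned, and Iglc1, Ime over Met, at -1.78 (5% threshold), -1.11 (500 genes) and -0.70 (without non-epithelial markers), on the log2 scale. The cause was not tested. In bulk, leaving out 1 replicate gave 2066 to 3429 called genes for metformin (3669 with all), with the lowest counts without metformin 2 and control 3. It gave 932 to 1623 for imeglimin (2433), with the lowest count without control 3, and 11 to 543 for imeglimin against metformin (114), with the highest count without imeglimin 3. The last was also 62 with no filter, 1217 with DESeq2 and 17 with the 2 groups alone. With the replicate block the counts were 3546, 2059 and 92, and of 149 named results called, 20 lost the call, 0 reversed and 29 others gained it. Of those 149, 67 kept the call under all 11 alternatives. Without control replicate 3, the library with pancreatic transcripts, Cela2a changed by 6.21 with metformin and 5.88 with imeglimin (log2), and over all left-out libraries its change ran from -12.74 to 6.21 and from -13.07 to 5.88.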
